A study of Sus scrofa with 34 samples.

Results

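Iron handling in liver and ileum was followed through 10 genes of pig, named by their symbols: *HAMP*, *BMP6*, *TFR2*, *TMPRSS6*, *TF*, *TFRC*, *SLC11A2*, *CYBRD1*, *FTH1* and *SLC40A1*. A gene was taken when the symbol of its Ensembl identifier matched one of these names, without use of any measured value. Of the 25880 genes in the count tables, 14857 had a symbol, and 9 of the 10 iron genes were found among them. *FTH1*, the heavy chain of ferritin, was matched to no identifier and is only named here.

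The libraries were poly(A)-selected, stranded RNA-Seq libraries from crossbred weaned piglets, made from tissue taken on day 28 of feeding. In the liver, 4 diets were compared. They were a basal diet (Control, 6 piglets), that diet with an essential oil-based phytogenic feed additive (PFA, 6 piglets), a diet with oxidized oil, a heat-treated rapeseed oil used as an oxidative challenge (OO, 6 piglets), and oxidized oil together with the additive (OO + PFA, 6 piglets, of which 5 were used). In the ileum, 2 diets were compared, Control and PFA, with 5 piglets each, and liver libraries of these 10 piglets were also sequenced. The additive is based on essential oils, and carvacrol is among its compounds. The oxidized oil was added while the other ingredients were lowered in proportion, so that its oxidation and the larger amount of oil cannot be told apart. Piglets of both sexes were used, and their sex was not used here. Every diet was fed in 1 pen, so that the effect of a diet and the effect of its pen cannot be told apart. The study left out an OO + PFA liver library for suspected RNA degradation without naming the pig. It was taken here to be that of pig 77, which had the lowest share of uniquely mapped reads in the mapping statistics of the liver libraries.

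Iron enters the body in the small intestine, where ferric iron is reduced at the surface of enterocytes (*CYBRD1*), taken up by the divalent metal transporter (*SLC11A2*) and passed to the blood by ferroportin (*SLC40A1*). It travels in blood bound to transferrin (*TF*), which the liver makes, and cells take it up through the transferrin receptor (*TFRC*) and store it in ferritin (*FTH1* and its light chain *FTL*). The liver sets the whole flow through the hormone hepcidin (*HAMP*), which closes ferroportin. Hepatocytes make hepcidin in response to BMP6, which acts through a receptor complex with hemojuvelin (*HJV*) and SMAD proteins, to transferrin sensed by TFR2, and to IL-6 through STAT3, while the protease TMPRSS6 dampens the BMP signal. Inside cells, iron regulatory proteins bind hairpins called iron-responsive elements: in the 5′ untranslated region they block translation of ferritin and ferroportin, and in the 3′ untranslated region they protect the mRNA of *TFRC* and of forms of *SLC11A2* from decay when iron is low.

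Sequences of these control points were read from RefSeq on the pig build Sscrofa11.1. The first pair shows the stretch of the *HAMP* promoter that holds a BMP response element core (GGCGCC, the first run of capitals) and a STAT motif (TTCNNNGAA, the second run), and the stretch of the *BMP6* promoter that holds the same core (capitals). The *HAMP* stretch lies at chr6:44785738-44785812, plus strand, from 125 to 51 bases before the gene's start, and the *BMP6* stretch at chr7:5058732-5058806, plus strand, from 85 to 11 bases before the start.
HAMP promoter: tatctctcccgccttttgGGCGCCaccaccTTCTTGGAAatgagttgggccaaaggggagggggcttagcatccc
BMP6 promoter: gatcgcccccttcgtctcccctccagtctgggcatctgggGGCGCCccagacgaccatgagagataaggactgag
Both motifs were searched on both strands from 250 bases before to 50 after the start of 14272 genes: 3284 promoters (23%) held GGCGCC and 940 (6.59%) held TTCNNNGAA. Neither motif was found in that window of any of the other iron genes. The windows rest on RefSeq gene starts, which were not checked, and that of *TFRC* may not be its promoter. Iron-responsive elements were searched in the RefSeq transcripts of all members. With the rule used, none was found in *TFRC* or *SLC11A2*. The RefSeq exons of *TFRC* hold 2383 bases, and whether its 3′ untranslated region is complete there was not tested. The search therefore cannot tell whether *TFRC* has such elements. The second pair shows the 30 bases around the loop of the iron-responsive element (CAGTGN, in capitals) in the 5′ untranslated region of the storage and of the export gene, at chr2:9535175-9535204 on the plus strand for *FTH1* and at chr15:94161659-94161688 on the minus strand for *SLC40A1*.
FTH1 element: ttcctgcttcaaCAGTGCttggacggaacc
SLC40A1 element: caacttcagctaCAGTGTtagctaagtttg

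The libraries held 18738055 to 42446834 counts on genes in liver and 18772230 to 24338165 in ileum. Values per library below are CPM, counts relative to the size of the library, after TMM scaling within a tissue. Genes with too few counts were set aside by edgeR's filter, which kept 8 of the iron genes in liver, 6 in ileum and 8 in the comparison of tissues. A gene is called changed at an adjusted p of at most 0.05, from the quasi-likelihood test of edgeR, where Benjamini-Hochberg adjustment ran over all genes tested. The tissues carried their own markers: 10 hepatocyte markers summed to between 88600 and 192000 CPM in the 23 liver libraries and 9 enterocyte markers to between 17400 and 33400 CPM in the 10 ileum libraries. As these are whole tissues, fewer cells of a type and less RNA per cell cannot be told apart.

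Liver libraries also differed in how their counts leaned toward genes rich in G and C. This was expressed as a GC slope, the change of a library's log2 CPM, relative to the mean of all libraries, per 10% of exonic GC content. The slope ran from -0.2 to 0.08 in Control (median -0.11), from -0.47 to 0.07 in PFA (median -0.115), from -0.38 to 0.42 in OO (median 0.075) and from 0.04 to 0.49 in OO + PFA (median 0.17). It matters here because *BMP6* (67% GC), *TMPRSS6* (65.6%) and *TFR2* (64%) are rich in GC, and *CYBRD1* (45.4%), *SLC11A2* (43.2%), *TFRC* (42.2%) and *SLC40A1* (41.9%) are not. Results are therefore given with and without a correction for GC content, which was possible for 7 of the 8 tested members, all but *TF*, and for 79.4% of the genes tested in liver. As that share is under 80%, the correction is void as a check over all genes, and its counts over all genes serve only as a background.

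*HAMP*, hepcidin itself, had no counts. The row ENSSSCG00000035436 (chr6:44785863-44787303, plus strand, 3 exons with 399 bases in RefSeq) was at 0 counts in all 34 libraries, liver and ileum, and 0 counts in a library allows up to 3 by counting error alone. No level, diet effect or relation of *HAMP* could therefore be given, and why the row is empty was not tested.

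*BMP6* (ENSSSCG00000001027, chr7:5058817-5208868, plus strand), the ligand that raises hepcidin output, was the member with the clearest rise on the oil diets. In liver its lowest, median and highest values were 7.64, 11.7 and 14.5 CPM in Control, and 7.77, 13.5 and 18.8 CPM in PFA. They were 11.4, 18.3 and 34.5 CPM in OO, and the 5 OO + PFA piglets had 16.4, 27.7, 28.8, 30.8 and 20.7 CPM. All OO + PFA piglets thus lay above all Control piglets, while the OO piglets overlapped with both groups fed without oil. Of all genes tested, 9% (1245 of 13831) had OO + PFA and Control piglets that did not overlap, and *BMP6* was 1 of the 8 members tested that did so.

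*BMP6* rose by a log2 fold change of 1.11 ± 0.26 (SE) in OO + PFA against Control, 2.15-fold, with an adjusted p of 0.0205. It was the only one of 8 members called in that comparison, in which 5.08% of all genes (702 of 13831) were called. In OO against Control the difference was 0.88 ± 0.25 with an adjusted p of 0.0552, which missed the threshold. No member was called there, beside 2.71% of all genes (375 of 13831). The *BMP6* call in OO + PFA held in 21 of the 23 fits that left out 1 piglet and was lost without Control pig 100 or the OO + PFA piglet at 30.8 CPM (highest adjusted p 0.0547).

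With both oil diets pooled against both diets without oil, *BMP6* was higher by 0.87 ± 0.18 on the log2 scale, with an adjusted p of 0.00436. After GC correction the pooled difference was 0.22 ± 0.2 (adjusted p = 0.55), and that of OO + PFA against Control 0.17 ± 0.28 (adjusted p = 0.788), so that both calls were lost. Over the 23 liver libraries the log2 CPM of *BMP6* had a Pearson r of 0.6 with the GC slope, and of 0.45 with diet means removed. Both values are a description of points that share their libraries. BMP6 in liver comes largely from sinusoidal endothelial cells, and the 8 endothelial markers summed to between 157 and 719 CPM in Control, 291 and 652 in PFA, 261 and 610 in OO and 362 and 610 in OO + PFA. None of these 8 markers was called in any liver comparison.

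*TFR2* (ENSSSCG00000007671, chr3:8539316-8553993, minus strand), the receptor with which hepatocytes sense iron-loaded transferrin, did not pass the test in any diet comparison. Its lowest, median and highest values were 286, 389 and 426 CPM in Control and 294, 351 and 378 CPM in PFA. They were 280, 327 and 643 CPM in OO, and 600, 385, 316, 387 and 428 CPM in the 5 OO + PFA piglets. The pooled oil difference was 0.19 ± 0.14 without and -0.35 ± 0.12 with GC correction (adjusted p = 0.395 and 0.0584).

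*TMPRSS6* (ENSSSCG00000026067, chr5:10663491-10704583, plus strand), the protease that cuts hemojuvelin, followed the GC slope most closely of the members (r = 0.89, n = 23). Its lowest, median and highest values were 65.3, 90.5 and 117 CPM in Control and 71.8, 86 and 109 CPM in PFA. They were 46.9, 94.4 and 177 CPM in OO, and 146, 112, 91.1, 115 and 121 CPM in OO + PFA. The groups overlapped, and OO held both the lowest and the highest library. Without correction *TMPRSS6* was not called (pooled oil difference 0.28 ± 0.18, adjusted p = 0.319). With GC correction the sign turned and the gene was called lower, by -0.38 ± 0.09 for the pooled oil diets (adjusted p = 0.00691) and by -0.47 ± 0.12 in OO + PFA against Control (adjusted p = 0.024). The direction of *TMPRSS6* therefore depends on whether GC content is corrected for. The plot of CPM against GC slope shows these relations.

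**Figure D1:**
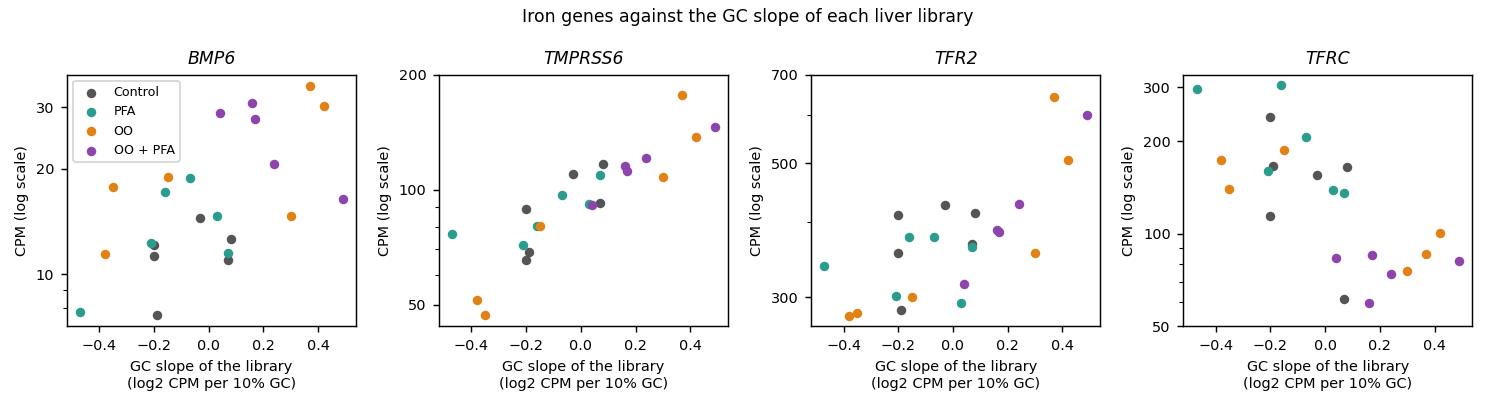
CPM (log axis) of *BMP6*, *TMPRSS6*, *TFR2* and *TFRC* in each of the 23 liver libraries against the library's GC slope (log2 CPM per 10% GC), with 1 point per piglet colored by diet. *BMP6*, *TMPRSS6* and *TFR2* lie higher in libraries with a higher slope (r = 0.6, 0.89 and 0.74) and *TFRC* lower (r = -0.72), and all OO + PFA libraries have slopes above 0. With diet means removed, r is 0.45, 0.9, 0.73 and -0.6 in the same order of genes.

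*TF* (ENSSSCG00000011640), transferrin, was abundant in liver and lower on the oil diets. Its lowest, median and highest values were 12100, 22500 and 25900 CPM in Control and 17400, 24000 and 35600 CPM in PFA. They were 13000, 18700 and 19300 CPM in OO, and 13600, 16500, 16600, 17900 and 14900 CPM in OO + PFA. The oil groups lay within or near the lower part of the range of the others, with 1 Control piglet below all of them. The pooled oil difference was -0.49 ± 0.14 (adjusted p = 0.0253), a 1.41-fold lower level, and neither OO (-0.3 ± 0.19, adjusted p = 0.369) nor OO + PFA (-0.44 ± 0.2, adjusted p = 0.195) was called against Control alone. The pooled call was lost without Control pig 110 or OO + PFA pig 79 (highest adjusted p 0.0514). Transferrin is made by hepatocytes, whose 10 markers summed to between 88600 and 157000 CPM in Control, 110000 and 192000 in PFA, 102000 and 125000 in OO and 101000 and 132000 in OO + PFA. Of these markers *SERPINA1* was called lower on the pooled oil diets (-0.65 ± 0.2, adjusted p = 0.035) and the other 9 were not called. The *SERPINA1* row was low, at 28 to 130 counts in the liver libraries of the 10 piglets with both tissues. It thus adds little to the sum of the markers. The part of hepatocyte content in the values of *TF* was not tested. In RefSeq the symbol names 2 neighboring loci (chr13:74862502-74907059 and chr13:74930655-74970599, plus strand), so that the row's reads may be shared between near copies and its values are uncertain.

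*TFRC* (ENSSSCG00000011848, chr13:133976765-133997554, plus strand), the receptor for cellular uptake of transferrin iron, was lower on the pooled oil diets, with the lower values mostly in OO + PFA. Its lowest, median and highest values were 61.3, 161 and 240 CPM in Control and 136, 184 and 304 CPM in PFA. They were 75.7, 121 and 187 CPM in OO, and the 5 OO + PFA piglets lay close together at 81.9, 85.7, 83.5, 59.5 and 73.8 CPM. Every OO + PFA piglet was below every PFA piglet, and 1 Control piglet was as low as the OO + PFA group. The share of all genes without overlap between OO + PFA and PFA was not counted. With both oil diets pooled, *TFRC* fell by 0.84 ± 0.2 on the log2 scale, 1.78-fold, with an adjusted p of 0.0127. The call held in all 23 fits that left out 1 piglet, and with GC correction the difference was -0.75 ± 0.17 (adjusted p = 0.00811).

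Against Control alone, *TFRC* differed by -0.97 ± 0.3 in OO + PFA with an adjusted p of 0.0545, and by -0.24 ± 0.28 in OO with an adjusted p of 0.651. The first of these passed the threshold with GC correction (-0.87 ± 0.25, adjusted p = 0.0386). Cells of the red lineage carry much transferrin receptor, and 11 erythroid markers summed to at most 598 CPM in Control (median 341), 185 to 569 in PFA (median 257), 215 to 466 in OO (median 325) and 147 to 452 in OO + PFA (median 249). None of the 7 erythroid markers tested was called in any liver comparison, and none of the 11 found was at 0 in all libraries of a liver group.

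*SLC11A2* (ENSSSCG00000034039), the divalent metal transporter, lies on a contig that is not placed on a chromosome. Its lowest, median and highest values in liver were 60.4, 75.4 and 85.8 CPM in Control and 50.4, 58.5 and 86 CPM in PFA. They were 40.7, 58.8 and 77.6 CPM in OO, and 60.7, 50.8, 45.9, 52.1 and 54.9 CPM in OO + PFA. The values of the oil groups lay lower but overlapped with both other groups. The pooled oil difference of -0.34 ± 0.11 was called (adjusted p = 0.0439), but narrowly: the call held in 6 of the 23 fits that left out 1 piglet (adjusted p from 0.0106 to 0.0837) and was lost with GC correction (-0.25 ± 0.09, adjusted p = 0.0938).

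*CYBRD1* (ENSSSCG00000025049, chr15:77649124-77695141, plus strand), the ferric reductase of the duodenal brush border, was low in liver. Its values ran from 7.51 to 24.5 CPM in Control (median 21.7), from 19.2 to 25.5 in PFA (median 22), from 16.4 to 27 in OO (median 21.5) and from 15.9 to 23.2 in OO + PFA (median 21.7). *SLC40A1* (ENSSSCG00000027157, chr15:94140635-94161793, minus strand), the iron exporter, ran from 291 to 556 CPM in Control (median 425), from 380 to 633 in PFA (median 465), from 326 to 639 in OO (median 529) and from 308 to 545 in OO + PFA (median 429). The groups of both genes overlapped widely, and neither was called in any diet comparison in liver. The interval of the pooled oil difference ran from -0.25 to 0.37 for *CYBRD1* and from -0.27 to 0.27 for *SLC40A1* (95%, log2). Macrophages carry much ferroportin, and 12 macrophage markers summed to between 552 and 1600 CPM in Control, 723 and 1670 in PFA, 1170 and 1930 in OO and 989 and 2230 in OO + PFA. Of these 12 markers, *MARCO* was called higher on the pooled oil diets (0.81 ± 0.23, adjusted p = 0.0295), and its part in any member's values was not tested.

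**Figure D2:**
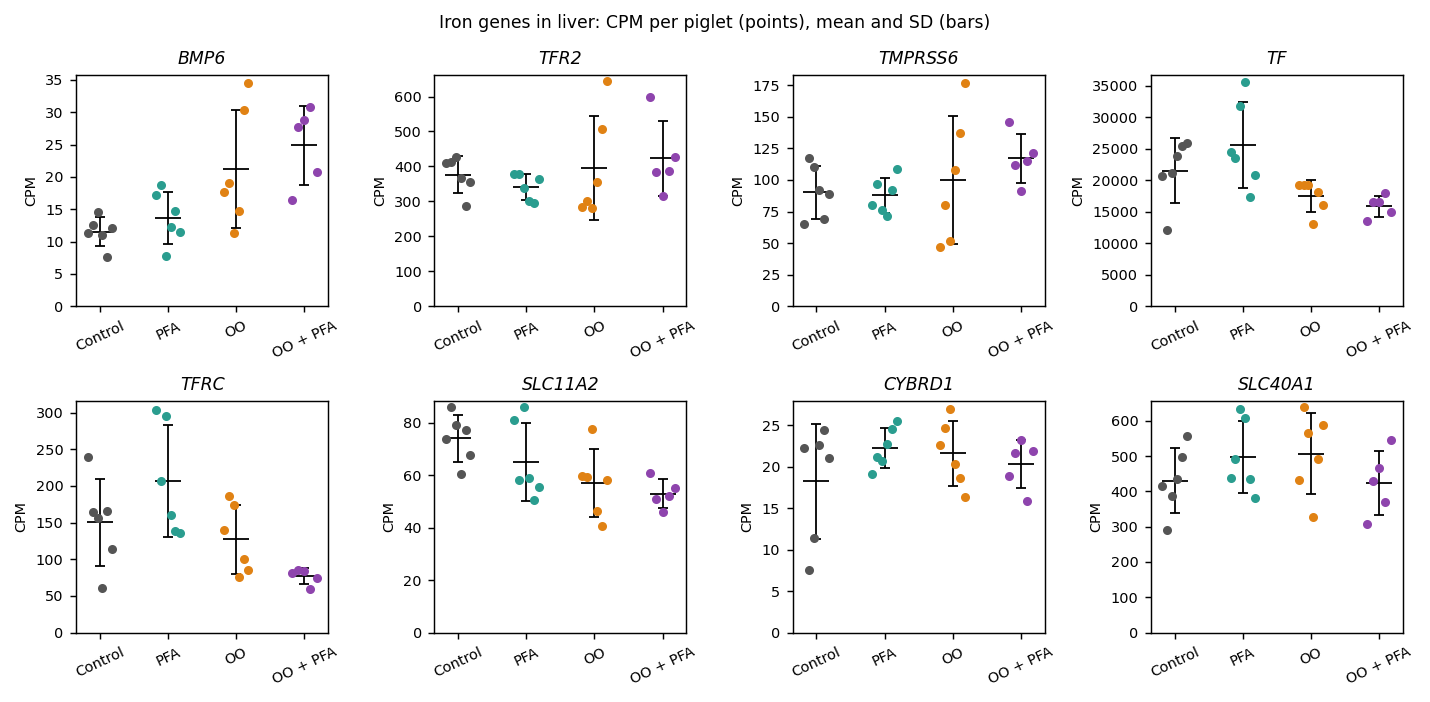
CPM (linear axes from 0) of the 8 tested iron genes in liver by diet, with 1 point per piglet and bars for the mean and SD (6 piglets in Control, PFA and OO, 5 in OO + PFA). *BMP6* is higher in OO + PFA (16.4 to 30.8 CPM) than in Control (7.64 to 14.5 CPM), *TFRC* is low and tight in OO + PFA (59.5 to 85.7 CPM), and *SLC40A1* and *CYBRD1* overlap across all diets.

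Counted together, 4 of the 8 members tested were called for the pooled oil diets, *BMP6* higher and *TFRC*, *TF* and *SLC11A2* lower. The background was 11.8% of all genes (1630 of 13831, 1238 higher and 392 lower). The median log2 difference of the members was 0.03 beside 0.01 for all genes, and the median of its absolute size was 0.31 beside 0.18. With GC correction 2 of 7 members were called for the pooled diets, *TFRC* and *TMPRSS6*, both lower, with 9.68% of all genes called (1063 of 10986), and the same 2 in OO + PFA against Control, with 6.81% called. In the test over all 4 diets, *BMP6* (adjusted p = 0.0291) and *TFRC* (adjusted p = 0.0334) were called, beside 3.66% of all genes. With GC correction *TFRC* (adjusted p = 0.0213) and *TMPRSS6* (adjusted p = 0.0354) were called in it, beside 7.31%.

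**Figure D3:**
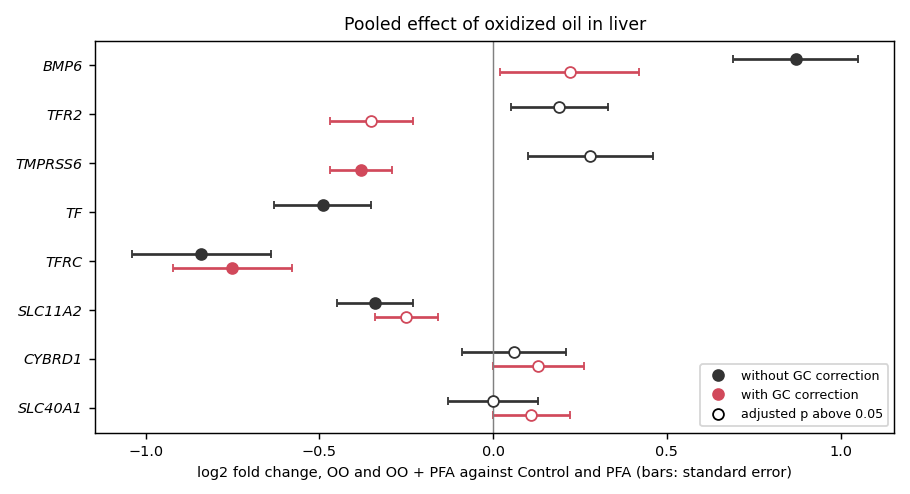
Log2 fold change of the pooled oil diets (OO and OO + PFA) against the pooled diets without oil (Control and PFA) for 8 iron genes, without (dark) and with (red) GC correction. Bars are standard errors, filled points have an adjusted p of at most 0.05, and *TF* has no GC value. *TFRC* stays near -0.8 under both, *BMP6* moves from 0.87 to 0.22 and *TMPRSS6* from 0.28 to -0.38.

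The titles of the liver libraries come in 2 forms, PigLiv and PL, whose meaning the labels do not give. Among the 14 PigLiv libraries the pooled oil differences were 0.97 for *BMP6*, -0.9 for *TFRC*, -0.61 for *TF* and -0.4 for *SLC11A2*, and all 4 were called (adjusted p = 0.0127, 0.0488, 0.025 and 0.0431). Among the 9 PL libraries, of which 1 was from OO + PFA, they were 0.59, -0.85, -0.32 and -0.32, and none was called (adjusted p = 0.854, 0.7, 0.922 and 0.882). With the form as a term in the model the same 4 members were called as without it. The shares of all genes called in the PigLiv fit and with this term are not given here. The 4 calls in each are therefore not set against a background.

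The additive alone moved no member past the threshold in liver. In PFA against Control 0% of the 13831 genes were called, with 1522 at an unadjusted p under 0.05 and 43 called by DESeq2, none of them a member. *TFRC* had the largest member difference, 0.46 ± 0.28, with a 95% interval from -0.11 to 1.03. In OO + PFA against OO 0% of the genes were called as well (1176 at an unadjusted p under 0.05 and 31 called by DESeq2). There *TFRC* differed by -0.73 ± 0.29 (unadjusted p = 0.0207, adjusted p = 0.516), with OO + PFA the lower. The interaction of oil and additive called 0% of the genes (1881 at an unadjusted p under 0.05 and 150 called by DESeq2). Its estimate for *TFRC* was -1.19 ± 0.4 (unadjusted p = 0.00704, adjusted p = 0.226), so that the mean of the additive's difference was upward without oil and downward with it, short of the threshold. These comparisons share their samples with those against Control.

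Among 26 genes listed for hepcidin signaling, 22 were tested in liver. In OO against Control 1 of the 22 was called, beside 2.71% of all genes. This was *ID1*, a direct target of BMP-SMAD signaling, at 2.3 ± 0.37 on the log2 scale, 4.91-fold higher (adjusted p = 0.000914). Its lowest, median and highest values were 4.86, 10 and 15.7 CPM in Control, 7.12, 24.5 and 32.6 in PFA and 19, 55.9 and 76.4 in OO, and the 5 OO + PFA piglets had 23.5, 13.8, 30.8, 14.2 and 16.4 CPM. Every OO piglet was above every Control piglet, and the OO + PFA piglets overlapped with all other groups. Of all genes tested, 2.24% (310 of 13831) had OO and Control piglets that did not overlap. The interaction of oil and additive for *ID1* was -2.51 ± 0.53 (adjusted p = 0.134), and -2.58 ± 0.49 with GC correction (adjusted p = 0.0459).

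In OO + PFA against Control 2 of the 22 were called, beside 5.08% of all genes. *SMAD6*, an inhibitor of the same pathway and also its target, was higher by 1.8 ± 0.43 (adjusted p = 0.023), with values of 0.95 to 2.4 CPM in Control and 7.42, 5.03, 3.53, 3.55 and 5.15 CPM in OO + PFA. *HJV*, the BMP co-receptor, was lower by -0.76 ± 0.16 (adjusted p = 0.0139), with values of 127 to 204 CPM in Control and 99.9, 110, 104, 64.1 and 61.4 CPM in OO + PFA. Neither gene's Control and OO + PFA piglets overlapped, as was the case for 9% of all genes.

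For the pooled oil diets 4 of the 22 were called, beside 11.8% of all genes. *ID1* was higher by 1.04 ± 0.26 (adjusted p = 0.0146) and *SMAD6* by 1.06 ± 0.3 (adjusted p = 0.0255). *HJV* fell by 0.43 ± 0.11 (adjusted p = 0.0168) and *IL6R*, the receptor for IL-6, by 0.47 ± 0.09 (adjusted p = 0.00252). *IL6R* ran from 62.7 to 79.2 CPM in Control, from 58.2 to 93.1 in PFA, from 46.5 to 62.1 in OO and from 45 to 67 in OO + PFA. The median of the 22 genes was -0.07 beside 0.01 for all genes. The same 4 were called with GC correction, at 0.89 for *ID1*, 0.83 for *SMAD6*, -0.39 for *HJV* and -0.46 for *IL6R*. In PFA against Control none of the 22 was called.

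**Figure D4:**
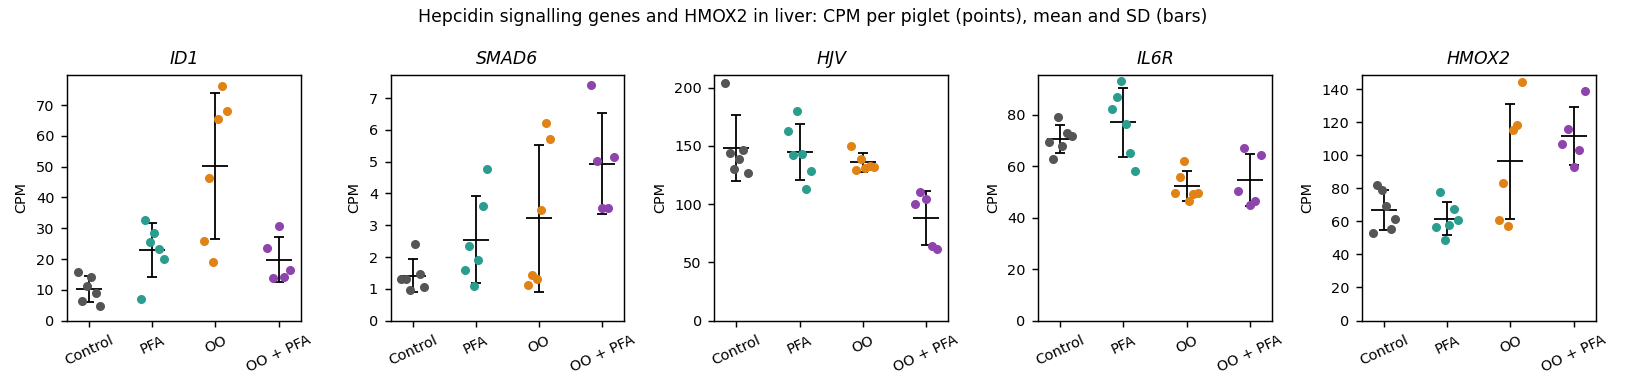
CPM (linear axes from 0) of *ID1*, *SMAD6*, *HJV* and *IL6R*, genes of hepcidin signaling, and of *HMOX2*, a heme oxygenase, in liver by diet, with 1 point per piglet and bars for the mean and SD. *ID1* is highest in OO (19 to 76.4 CPM), *HJV* lowest in OO + PFA (61.4 to 110 CPM) and *IL6R* lower in both oil groups.

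The other lists held fewer calls. None of the 10 tested partners of iron uptake, oxidation and storage was called in any diet comparison in liver, and their median for the pooled oil diets was -0.03. *FTL*, the light chain of ferritin and the only measured ferritin subunit at a high level, had medians of 3620 CPM in Control, 3690 in PFA, 3750 in OO and 3360 in OO + PFA, with a pooled oil difference of 0.03 ± 0.11 (adjusted p = 0.91). *NCOA4*, which delivers ferritin for breakdown, had the smallest p of the list, at -0.32 with an adjusted p of 0.0997.

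Of 9 regulators of the iron regulatory proteins and of hypoxia, *ARNT*, the partner of the hypoxia-inducible factors, was lower in OO than in Control (-0.56 ± 0.15, adjusted p = 0.0469). It was 1 of 9 called there, beside 2.71% of all genes. For the pooled oil diets 1 of 9 was called, beside 11.8% of all genes. *FBXL5*, which marks IRP2 for breakdown when iron is present, was lower on the pooled oil diets (-0.29 ± 0.09, adjusted p = 0.0487), a call lost with GC correction (adjusted p = 0.0952). The median of the 9 genes was -0.12 for the pooled diets.

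Of 18 genes of heme handling tested, 1 was called without GC correction. The share of all genes called was 11.8% for the pooled oil diets and 5.08% in OO + PFA against Control. *HMOX2*, the constitutive heme oxygenase that frees iron from heme, was higher by 0.69 ± 0.14 on the pooled oil diets (adjusted p = 0.00336) and by 0.74 ± 0.2 in OO + PFA against Control (adjusted p = 0.0351). Its values ran from 53.2 to 81.9 CPM in Control, and the OO + PFA piglets had 107, 116, 92.7, 103 and 139 CPM, all above Control. Control and OO + PFA did not overlap in 9% of all genes. The pooled difference with GC correction was 0.66 ± 0.12 (adjusted p = 0.00149). With GC correction, which left 17 of these genes, 3 more were called, all lower. Of the 17, 2 were called in OO + PFA against Control, beside 6.81% of all genes. For the pooled oil diets 2 were called, beside 9.68%. In OO against Control 2 were called, and the count over all genes there is given in the last paragraph. *PPOX*, an enzyme of heme synthesis, was lower in OO (-0.41 ± 0.11, adjusted p = 0.0271) and in OO + PFA (-0.43 ± 0.12, adjusted p = 0.0268) against Control. *FLVCR2*, a heme transporter, was lower in OO against Control (-0.63 ± 0.16, adjusted p = 0.0199), and *SLC46A1*, a carrier of folate and heme, on the pooled oil diets (-0.46 ± 0.13, adjusted p = 0.0275). The median for the pooled oil diets was 0.1 for the 18 genes and -0.09 for the 17 with correction.

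Of 15 genes of mitochondrial iron and iron-sulfur clusters, *FDXR*, ferredoxin reductase, was among those called higher on the pooled oil diets (0.67 ± 0.2, adjusted p = 0.0325). Of all genes, 11.8% were called there without GC correction and 9.68% with it. With GC correction the genes called were instead *NFU1*, *HSCB* and *ISCA2*, all higher, at 0.3, 0.36 and 0.32, and the median of the 15 was 0.2 without and 0.16 with correction.

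Within diets, *TFRC* and *SLC11A2* rose and fell together from piglet to piglet. After the mean of each diet was subtracted, their log2 CPM over 23 liver libraries had a Pearson r of 0.7 (permutation p = 0.00018, adjusted 9e-04 over 5 relations) and a Spearman rho of 0.73 (permutation p = 0.00012, adjusted 6e-04). Without the 2 libraries farthest from the median of *TFRC* r was 0.66, and it was 0.68 in the 14 PigLiv and 0.73 in the 9 PL libraries. With GC correction r was 0.53 (permutation p = 0.00843, adjusted 0.0211). Both genes have a similar GC content, both correlated with the GC slope with diet means removed (r = -0.6 and -0.54), and the part of the slope in their relation beyond this correction was not tested. No relation of *BMP6* with a target gene of its pathway passed the test: r was 0.18 with *ID1*, 0.32 with *SMAD6*, -0.05 with *SMAD7* and 0.03 with *ATOH8* (adjusted permutation p of 0.703, 0.338, 0.896 and 0.896). The relation of *BMP6* with *SMAD6* turned to -0.68 with GC correction (adjusted permutation p = 0.00215). Without correction but with diet means kept in, it was 0.61 (adjusted permutation p = 0.00572).

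The genes whose log2 CPM followed *TFRC* most closely over the 23 liver libraries, diet means removed, were *TBC1D8B* (r = 0.88), *EDEM1* (r = 0.87) and *SLC30A5* (r = 0.85). Those nearest to *SLC40A1* were *LGR4* (r = 0.84), *EPS8* (r = 0.83) and *CDH1* (r = 0.83). They were picked as the highest of all tested genes, and the values are a description.

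In the ileum, the additive was compared with Control in 5 piglets each, and 0% of 14300 genes were called (401 at an unadjusted p under 0.05 and 4 called by DESeq2, none of them a member). Of the 6 members tested, *SLC11A2* and *TFRC* had the smallest p. *SLC11A2*, which brings iron into the enterocyte, had 71.8, 75.3, 69.1, 54.7 and 60.9 CPM in Control and 80.2, 79.5, 95.3, 79 and 72.7 CPM in PFA. *TFRC* had 143, 99.2, 113, 113 and 89.4 CPM in Control and 154, 123, 150, 149 and 119 CPM in PFA. Both genes overlapped between the diets. The differences were 0.29 ± 0.11 for *SLC11A2* (unadjusted p = 0.024) and 0.32 ± 0.14 for *TFRC* (unadjusted p = 0.0381), with an adjusted p of 0.991 for each. With GC correction they were 0.21 ± 0.1 (unadjusted p = 0.06) and 0.21 ± 0.14 (unadjusted p = 0.17). The GC slope of the ileum libraries ran from -0.23 to 0.26 in Control (median 0.14) and from -0.37 to 0.37 in PFA (median -0.13).

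The study took the middle part of the ileum, so that levels in other parts of the small intestine, such as the duodenum, are not known here. *CYBRD1* varied most among the members of the absorptive path, with 734, 530, 345, 396 and 959 CPM in Control and 1010, 290, 1160, 488 and 741 CPM in PFA. *SLC40A1*, which passes iron to the blood, had 38.9, 85.1, 39.6, 60.7 and 54.4 CPM in Control and 48.6, 40.4, 72.5, 43.4 and 60.5 CPM in PFA. The spread of both within a diet was wider than the distance between diets. Their differences were 0.31 ± 0.38 (95% interval -0.51 to 1.13) and -0.07 ± 0.23 (95% interval -0.58 to 0.44), so that a 2-fold rise of *CYBRD1* lay within its interval. *BMP6* (2.25 to 3.54 CPM in Control and 1.52 to 3.91 in PFA) and *TF* (0.152 to 1.42 and 0.419 to 1.07) were low in ileum. *TFR2* and *TMPRSS6* were filtered out there, at 4 to 11 and 2 to 17 counts per library. None of the genes of the 5 other iron lists was called in ileum. *FTL* had the smallest p among them, with 1010 to 1590 CPM in Control and 931 to 1120 CPM in PFA (-0.4 ± 0.13, adjusted p = 0.991).

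Between the tissues of the same 10 piglets, 7 of the 8 members tested were lower in ileum and 1 was higher. All 8 were called, in a comparison in which 78.1% of all genes (11699 of 14982) were called, so the count itself says little and the sizes are given. Values here are CPM scaled over both tissues. The genes of transferrin sensing and of BMP damping were near 0 in ileum: *TFR2* ran from 413 to 599 CPM in liver and from 0.117 to 0.373 in ileum, and *TMPRSS6* from 94 to 170 and from 0.0708 to 0.448. *BMP6* was 9.95-fold lower in ileum, with 11 to 28.3 CPM in liver and 1.03 to 2.62 in ileum. *TF* ran from 17600 to 51700 CPM in liver and from 0.105 to 0.965 in ileum, a log2 difference of -16.19 ± 0.43.

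*CYBRD1* was the only member higher in ileum, by 3.85 ± 0.27 (14.5-fold), with 10.9 to 36.5 CPM in liver and 194 to 782 in ileum. *SLC40A1* was 18.8-fold lower in ileum, with 422 to 943 CPM in liver and 26.6 to 56.7 in ileum. Neither gene's tissues overlapped, and each piglet showed the same direction. The share of all genes without overlap between tissues was not counted.

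*TFRC* was lower in ileum by a log2 difference of 1.54, with 90.6 to 441 CPM in liver and 60.8 to 106 in ileum, and lower in each of the 10 piglets. *SLC11A2* differed by -0.98 ± 0.1, with 73.2 to 128 CPM in liver and 37.9 to 64.5 in ileum. No member turned direction between tissues with upper quartile scaling or with DESeq2. The direction of *SLC11A2* did turn with library totals alone, without TMM factors: it was higher in ileum by 0.15 (adjusted p = 0.0443), and *TFRC* differed by -0.39 (adjusted p = 0.0337). The other 6 members kept their direction and were called under that scaling, with log2 differences of 4.94 for *CYBRD1*, -3.1 for *SLC40A1*, -2.2 for *BMP6*, -7.95 for *TMPRSS6*, -10.11 for *TFR2* and -15.06 for *TF*, so that the sizes of the folds between tissues depend on the scaling. With the piglet as a replicate block all 8 members were called again, at -1.45 for *TFRC*, -0.97 for *SLC11A2*, 3.78 for *CYBRD1* and -4.25 for *SLC40A1*.

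**Figure D5:**
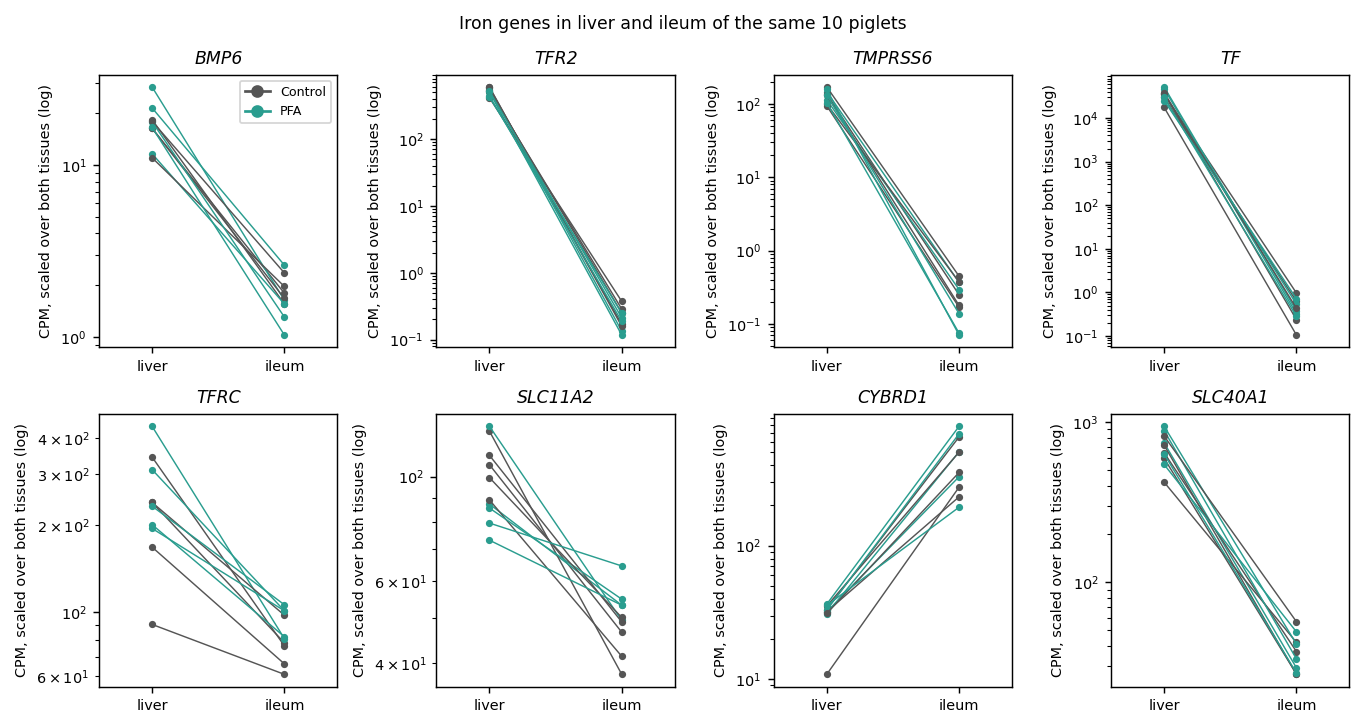
CPM scaled over both tissues (log axes) of the 8 tested iron genes in liver and ileum of the same 10 piglets, with 1 line per piglet colored by diet. *CYBRD1* rises from liver (10.9 to 36.5 CPM) to ileum (194 to 782 CPM) in every piglet, and the other genes fall, though *SLC11A2* does not with library totals alone.

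Of the partners of iron uptake, oxidation and storage, all 13 tested were called between tissues, beside 78.1% of all genes, 3 of them higher and 10 lower in ileum. Their median was -2.17 on the log2 scale beside 0.05 for all genes. *HEPH*, the ferroxidase of enterocytes, ran from 0.0645 to 0.6 CPM in liver and from 106 to 168 in ileum, and *CP*, the ferroxidase of plasma, from 1920 to 7640 and from 0.479 to 3.82. *HJV*, of the list for hepcidin signaling, had 3024 to 5211 counts in the liver libraries and 0 or 1 in the ileum libraries. The tissue difference of the additive's effect called 0% of 14982 genes (739 at an unadjusted p under 0.05 and 0 called by DESeq2). Its smallest member p was that of *SLC11A2*, at 0.52 ± 0.2 (unadjusted p = 0.0161, adjusted p = 0.976).

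Levels of different genes can be set side by side only per length. Exon lengths were those of RefSeq, while the counts are per Ensembl gene. Whether the 2383 RefSeq bases of *TFRC* are its full length was not tested. Its values per kb, its place in the orders below and its overlaps are therefore uncertain. *TF*, by far the highest member in liver by CPM, had no exon length here. It is left out of both orders. In CPM per kb of exon, the medians of Control liver ran in the order *SLC40A1* (121), *TFR2*, *TFRC* (67.5), *TMPRSS6* (27.6), *SLC11A2* (10.4), *BMP6* (7.15) and *CYBRD1* (4.12). *SLC40A1* (82.9 to 159) and *TFR2* (75.2 to 112) overlapped between piglets, as did *TFRC* (25.7 to 101) with *TFR2* and *TMPRSS6* (19.9 to 35.6) with *TFRC*. *SLC11A2* (8.35 to 11.9) and *BMP6* (4.65 to 8.85) overlapped as well. In Control ileum the order was *CYBRD1* (101), *TFRC* (47.4), *SLC40A1* (15.5), *SLC11A2* (9.55), *BMP6* (1.63), *TMPRSS6* (0.112) and *TFR2* (0.0967). There *CYBRD1* (65.5 to 182), *TFRC* (37.5 to 59.9), *SLC40A1* (at most 24.3), *SLC11A2* (7.56 to 10.4) and *BMP6* (1.37 to 2.16) did not overlap with their neighbors in that order, while *TMPRSS6* and *TFR2* did.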

How the data were processed

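RNA-Seq was done on 24 liver and 10 ileum libraries. Per the labels and the study's methods, the authors mapped reads with STAR 2.6.1d to Sscrofa11.1 and counted them per gene with HTSeq. The labels name DESeq2 1.22.2, and the study's methods another version of it. The deposited values are raw read counts per Ensembl gene. The strand and overlap settings of HTSeq are not given in the sources used here. Rows that name no gene held 13.5 to 36.7% of each column's total (2.55 to 23.2% not uniquely mapped) and were left out. The members and gene lists were chosen with earlier results of these data known. All members are named, and from each other list at most 4 genes per comparison, those with the smallest p, together with the 3 genes of highest r with *TFRC* and with *SLC40A1*. One result of the lists is not reported here.

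Counts were filtered by edgeR's filterByExpr, scaled by TMM and tested with the quasi-likelihood test of edgeR 4.0.16 (R 4.3.3, limma 3.58.1), two-sided, with 1 coefficient per diet over 23 liver or 10 ileum libraries, and per tissue and diet over 20 libraries. The script was tested on simulated data. GC correction used a lowess fit (span 0.5) of log2 counts on exonic GC content of RefSeq genes. Relations used 100000 permutations, two-sided, with a prior count of 2 for log2 CPM. Of 12 planned relations, 1 could be computed, since *HAMP* had no counts and *FTH1* no matched row, and the 4 with *BMP6* were chosen after the data were seen. Each piglet is 1 library per tissue, and since piglets of a diet shared a pen, p-values measure the spread within pens. Alternatives were DESeq2 1.42.0, upper quartile scaling, other filters, a fold of 2, GC correction, all 24 liver libraries, title form as a term or alone, the compared diets fitted alone, leaving out each piglet in turn, and piglet as replicate block. GC-valued genes without correction and library totals alone were added after the data were seen.

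Liver and ileum libraries with the same pig number come from the same animal. Their deviations from the group means correlated at -0.18 to 0.46, over 0.1 in 8 of 10 piglets, with a median of -0.03 for other pairs. Intervals and floors from counts cover counting error only.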

Additional observations from a re-analysis of the deposited data

Results flagged for a closer look

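One liver library outside the comparisons, OO + PFA pig 77, taken to be the one left out for suspected RNA degradation, lay above every Control piglet in the GC-rich members. Its values were scaled over 24 liver libraries and those of Control over 23, so that its place near a Control limit is uncertain. This holds for *TFR2* (highest Control 426 CPM) and *TFRC* (lowest Control 61.3 CPM). The library of pig 77 held 432 CPM of *TFR2*, 145 CPM of *TMPRSS6* and 20.4 CPM of *BMP6*. In the same library *TF* was at 2640 CPM, *SLC40A1* at 174 CPM and *SLC11A2* at 48.4 CPM, each below every Control piglet, while *TFRC* (62.3 CPM) and *CYBRD1* (12.1 CPM) lay inside the Control range. Of 48 groups of a member's values by diet and tissue, 0 had a library standing apart by Dixon's criterion, which by chance alone marks about 1 group in 20.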

How the results depend on the processing

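With DESeq2, 1 member was called in OO against Control (*BMP6*) and 3 in OO + PFA against Control (*TFRC*, *SLC11A2* and *BMP6*). The same 3 were called there with upper quartile scaling, with all 24 liver libraries and with the 2 diets fitted alone. The counts over all genes there rose too with DESeq2, with all 24 libraries and with the diets fitted alone (last paragraph). The count over all genes with upper quartile scaling is not given here. More members called in these settings is therefore not a result about the members. For the pooled oil diets, no filter left 2 members called (*TFRC* and *BMP6*), GC correction 2 (*TFRC* and *TMPRSS6*) and a fold of 2 left 0. GC correction called 2 members in OO + PFA against Control. PL libraries alone called 0 members in OO + PFA against Control, for the pooled oil diets and over the 4 diets, and PigLiv libraries alone 0 over the 4 diets. At least 10 counts in every library left 5 members to test between tissues, all 5 called. Values that reversed were *TMPRSS6* in OO + PFA against Control (-0.47) and for the pooled oil diets (-0.38) with GC correction, *SLC11A2* between tissues (0.15) with library totals alone, and *BMP6* with *SMAD6* (r = -0.68) with GC correction. Without GC correction, r of *BMP6* with *SMAD6* was 0.61 with diet means kept in, beside 0.32 with diet means removed. Leaving out 1 piglet at a time, members called ranged from 0 to 2 in OO against Control, 0 to 3 in OO + PFA against Control, 2 to 4 for the pooled oil diets, 0 to 3 over the 4 diets, 8 to 8 between tissues and 0 to 0 elsewhere. The piglet as replicate block (8 of 8 members, 11720 genes between tissues) changed no other call. The causes were not tested beyond what each setting changes. Signs that turned where neither value was called are not counted as reversed.

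Counts over all genes moved by more than 1.5 times as follows. In OO against Control (375) they were 1079 with DESeq2, 805 with GC correction, 224 with all 24 libraries, 194 fitted alone, 153 with a fold of 2, 114 in PigLiv and 8 in PL libraries. In OO + PFA against Control (702) they were 1370 with DESeq2, 1530 with all 24 libraries, 1690 fitted alone, 453 with a fold of 2, 237 in PigLiv and 12 in PL libraries. For the pooled oil diets (1630) they were 469 with a fold of 2 and 30 in PL libraries. Over the 4 diets (506) they were 1776 with DESeq2, 803 with GC correction, 1113 with all 24 libraries, 157 in PigLiv and 44 in PL libraries. Between tissues (11699) a fold of 2 left 6808. In liver the members tested had at least 155 counts per library. In ileum *TF* had 4 to 27, *BMP6* 29 to 95, *TFR2* 4 to 11 and *TMPRSS6* 2 to 17, which limits their values there. The number of piglets and the GC slope limit the others.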
